A study of Mus musculus with 4 samples.

Results

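The 6 members of the Fos and Jun families described here are Fos, Fosb, Fosl2, Jun, Junb and Jund. They were found by symbol among the 19465 genes of a table of spatial gene expression in mouse brain, and each occurred in the table. They were chosen by name after an earlier look at the same sections had shown that immediate-early genes spread widely between libraries, so their levels over the libraries count as used in the choice and are given as a description. Coronal sections showing the striatum came from 4 mice, of which 2 were of wild type and 2 carried Celsr3, which encodes an adhesion receptor of the cadherin family, in the heterozygous state, and all were untreated. Brains were formalin-fixed and paraffin-embedded, and probes for each gene were captured on a grid of barcoded spots with the Visium CytAssist assay, so that a spot is a small region that can hold several cells. Strain, sex and age are not given in the sources used here.

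The spot barcodes end in 1 of 4 numbers, and these 4 barcode sets match no animal, genotype or replicate name in the labels. No set was therefore tied to an animal, the genotypes were not compared, and every value is given for each set with no test, SD or mean over sets. Intervals are 95% and cover counting error only. Of 12602 spots 12601 were kept, and sets 1 to 4 held 3055, 2808, 3444 and 3294 spots. The total counts were 174761560, 109663162, 165184912 and 90752475, with medians of 52481, 38181.5, 44972 and 26444.5 counts per spot. The sets shared barcodes, which are positions on the grid, with 1613 of 4744 barcodes in all 4 sets. Celsr3 itself was at 31.7, 46.8, 26.0 and 47.2 CPM in sets 1 to 4, where CPM is the counts of a gene per 1000000 of all counts, and these levels were not used to assign a set.

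Fos and Jun proteins are basic leucine zipper transcription factors that bind DNA as pairs known as AP-1. Jun proteins pair with one another or with Fos proteins, whereas Fos proteins need a Jun partner. In neurons, calcium entry and growth factor signalling act through the ERK and JNK kinases and the factors CREB and SRF to switch on several of these genes within minutes, for which they are called immediate-early genes. Fos is the textbook marker of recently active neurons, Fosb gives rise to a stable truncated protein that builds up in the striatum with repeated stimulation, and Fosl2 is a slower Fos relative. Jun is the founding member and a substrate of JNK, Junb is induced alongside Fos, and Jund is held at a steady level in many tissues.

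The sequences below are the 150 bases before the start of transcription of the 4 members whose levels moved most between barcode sets, from RefSeq on GRCm38.p6, written 5′ to 3′ on the strand of the gene. All 6 members were matched by symbol. Capitals mark TGACG, the core of the cAMP response element that CREB binds.
Fos, chr12:85473740-85473889, plus strand: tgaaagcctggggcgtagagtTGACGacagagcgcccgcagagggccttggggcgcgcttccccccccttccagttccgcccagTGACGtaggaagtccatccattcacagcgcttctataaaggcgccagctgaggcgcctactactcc
Fosb, chr7:19310046-19310195, minus strand: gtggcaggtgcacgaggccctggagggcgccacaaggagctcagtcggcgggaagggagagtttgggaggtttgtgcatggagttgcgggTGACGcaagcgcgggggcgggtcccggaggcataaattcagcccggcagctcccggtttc
Junb, chr8:84978749-84978898, minus strand: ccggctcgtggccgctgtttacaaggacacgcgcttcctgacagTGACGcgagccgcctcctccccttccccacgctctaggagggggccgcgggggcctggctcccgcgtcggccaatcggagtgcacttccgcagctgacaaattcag
Fosl2, chr5:32136322-32136471, plus strand: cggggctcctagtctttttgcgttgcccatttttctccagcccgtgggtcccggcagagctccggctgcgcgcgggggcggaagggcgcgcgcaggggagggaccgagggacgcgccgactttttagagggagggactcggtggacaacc
In the 250 bases before the start, searched on both strands, TGACG occurred in 3 of the 6 members. It began at -129 and -66 in Fos, at -60 in Fosb and at -106 in Junb, counted from the start of transcription. The same letters occurred in 17.8% of the 32851 promoters of the table. The full palindrome TGACGTCA, the AP-1 site TGANTCA and the CArG box that SRF binds occurred in 0 of the 6 members in this window, against 1.55%, 6.75% and 1.47% of all promoters. TGACG overlaps TGACGTCA. A match of letters describes the sequence and not a bound site. Variants of these motifs and sequence farther from the start were not searched, so a count of 0 does not show that a gene lacks such sites.

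Over whole sections, 4 of the 6 members differed several-fold between barcode sets. Fos was at 15.9, 65.5, 9.24 and 88.2 CPM in sets 1 to 4. Fosb was at 8.67, 22.0, 7.30 and 26.9 CPM, and Fosl2 at 25.1, 56.9, 16.2 and 50.7 CPM. Junb was at 41.7, 116.1, 37.7 and 134.8 CPM. For each of these genes sets 2 and 4 lay above sets 1 and 3 and the intervals of no pair of sets overlapped. Intervals are narrow at these totals, and the share of all genes without overlap is not given here. Jun and Jund were also higher in sets 2 and 4 than in sets 1 and 3 but kept a narrower range. Jun was at 79.9, 94.8, 75.3 and 109.3 CPM and Jund at 466.0, 607.1, 421.0 and 558.4 CPM. Probes cover part of a transcript and differ between genes, so a level of one gene is not set against that of another.

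**Figure D1:**
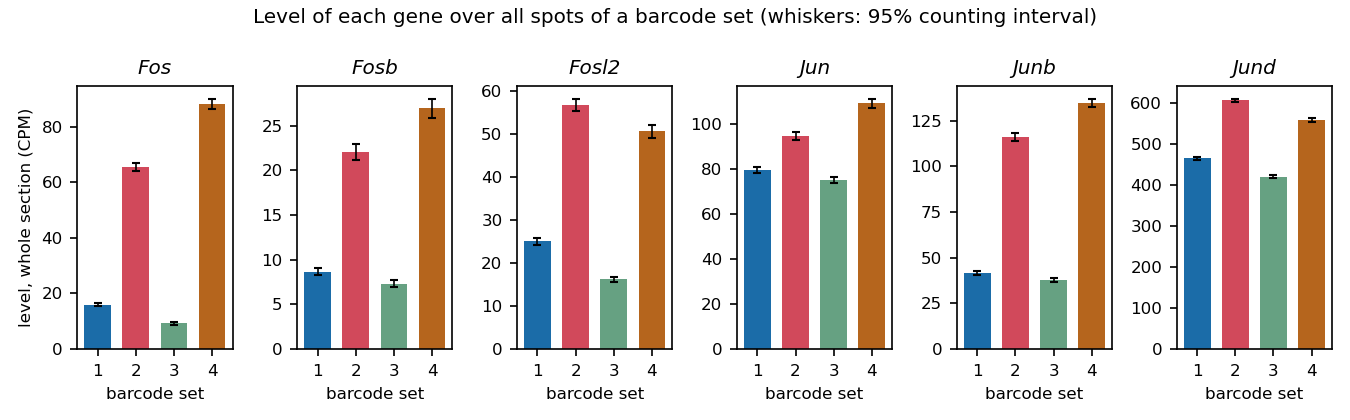
Level of each gene in CPM over all spots of barcode sets 1 to 4, with whiskers for the 95% counting interval and an axis of its own for each gene. The lowest Fos bar is set 3, at 9.24 CPM, and the highest set 4, at 88.2 CPM, whereas the Jun bars lie between 75.3 and 109.3 CPM.

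The ratio of the highest to the lowest set was 9.54 for Fos, 3.69 for Fosb, 3.57 for Junb and 3.501 for Fosl2, against 1.45 for Jun and 1.44 for Jund. The 4 former genes were at least 2-fold lower in set 1 than in set 2, and of the 10144 genes that averaged 10 CPM or more 2.16% were that much lower there. They were also at least 2-fold lower in set 1 than in set 4 (2.69% of genes), at least 2-fold higher in set 2 than in set 3 (1.64%) and at least 2-fold lower in set 3 than in set 4 (2.71%). Fosl2 was close to the threshold between sets 1 and 4, at a log2 ratio of -1.02, and did not reach it with TMM scaling (-0.77) or RLE scaling (-0.80), which left 3 members 2-fold apart in that pair. Between sets 1 and 3 (0.591% of genes in either direction) and between sets 2 and 4 (0.868%) 0 of the 6 members were 2-fold apart. Their median log2 ratio was -1.26 for set 1 over set 2, against 0.07 for all genes tested, and -1.74 for set 3 over set 4, against 0.06.

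The nearest pairs of sets still differed beyond counting error. Fos in set 1 was 1.73 times its level in set 3 (interval 1.62 to 1.84), and in set 4 it was 1.35 times its level in set 2 (1.30 to 1.39). Fosl2 was the one gene of the 4 that was lower in set 4 than in set 2, at 0.891 times (0.858 to 0.926). The largest contrast was Fos in set 4 over set 3, at 9.54 times (9.03 to 10.1).

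Other measures moved with these levels. Sets 2 and 4 had the lower total counts. After the summed counts were thinned to the smallest total, the same number of members, 4, was 2-fold apart in each of the 4 pairs named above. Such thinning leaves the expected ratios unchanged, so the part of depth was not tested by it. The summed level of 3 neuronal markers was 3282, 4489, 3755 and 4565 CPM in sets 1 to 4, and that of 8 endothelial and mural markers 257, 330, 221 and 332 CPM. Blood markers, of which 3 of 4 were in the table and none was at 0, summed to 9.99, 25.2, 5.95 and 123.5 CPM. Astrocyte markers (5 genes) ranged from 858 to 1085 CPM and microglial markers (6 genes) from 377 to 412 CPM. The part of these in the result was not tested, and in spots with many cells fewer cells of a type and less RNA per cell cannot be told apart.

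To place the members in the brain, spots of each set were clustered without the members and other induced genes, and clusters were named by marker genes of 15 areas. The striatal-marker area held 670, 628, 906 and 477 spots in sets 1 to 4, and all 14 of its markers were higher there than in the other spots in every set. Cortical layers 2/3, 4 and 6, a basal forebrain area with cholinergic markers, a hypothalamic and preoptic area, white matter, the ventricle lining and the meninges also had at least 30 spots in each set, which gave 9 areas in every set. A further 6 areas lacked 30 spots in at least 1 set. Clusters that did not meet the naming rule held 22.5%, 24.8%, 21.8% and 20.9% of the spots and were left unnamed. Some of these had few markers of any area, and others carried markers of 1 or more areas. An area is a region named by its leading genes, not a cell type.

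**Figure D2:**
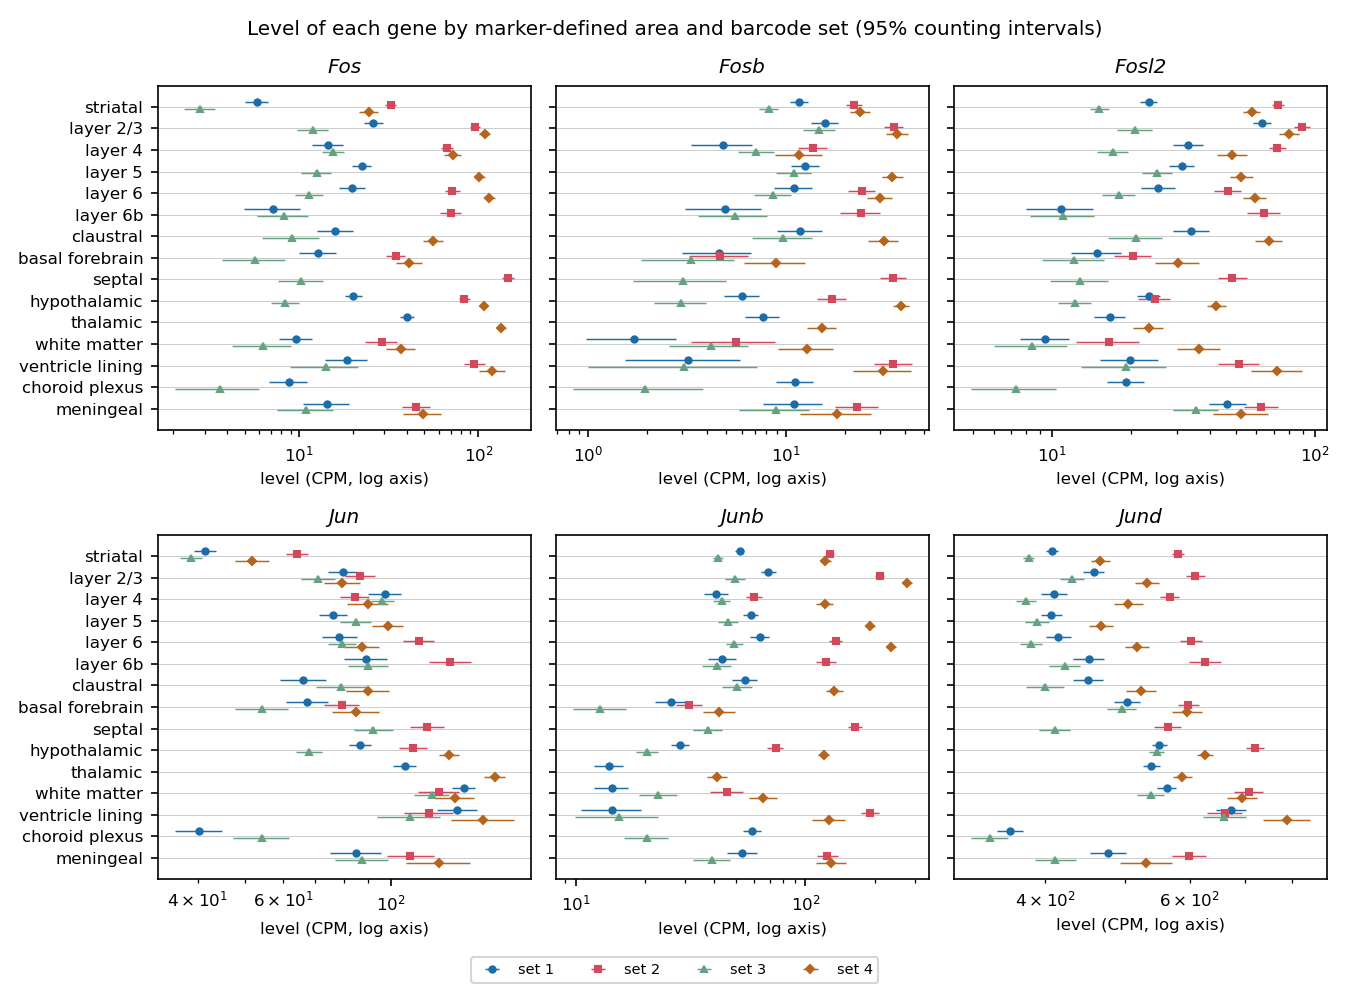
Level of each gene in CPM on a log axis, by marker-defined area and barcode set, with 95% counting intervals, for areas with at least 30 spots in a set. In Fos the striatal points lie at or near the lower end of the areas of each set, and in Jun the white matter and ventricle lining points lie at or near the upper end.

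Fos was lowest of the 9 areas in the striatal area in sets 1, 3 and 4 and next to lowest in set 2. Its striatal levels were 5.84, 32.5, 2.82 and 24.5 CPM in sets 1 to 4. In cortical layer 2/3 it was at 26.0, 95.8, 11.99 and 108.3 CPM, and in the hypothalamic and preoptic area at 20.2, 83.6, 8.42 and 107.6 CPM. The low end was therefore shared by all sets, although the striatal level of set 2 exceeded the layer 2/3 level of sets 1 and 3. In set 2 the striatal interval overlapped that of white matter, at 28.9 CPM, and that of the basal forebrain area, at 34.7 CPM. In set 4 the striatal interval lay below that of every other area.

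The upper end of the Fos order was crowded. Fos in the ventricle lining was at 18.5, 95.1, 14.1 and 119.6 CPM, and its intervals overlapped those of layer 2/3 in every set. In layer 6 it was at 19.9, 71.7, 11.4 and 115.1 CPM and in layer 4 at 14.6, 67.0, 15.5 and 72.1 CPM. Areas found in some of the sets carried the highest values in sets 1, 2 and 4. The thalamic area, present in sets 1 and 4, had 40.0 and 134.3 CPM of Fos, and the septal area, present in sets 2 and 3, had 146.3 and 10.3 CPM. In set 3 the septal value lay in the middle of the areas, whereas in set 2 it was above the interval of every other area.

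Fosb, the gene of the truncated striatal protein, had another order. It was highest in layer 2/3 in sets 1, 2 and 3 and second in set 4, at 15.8, 35.2, 14.8 and 36.5 CPM. In the striatal area it was at 11.7, 22.2, 8.22 and 23.9 CPM, which was rank 2 of the 9 areas in set 1 and rank 4 or 5 in the other sets. The basal forebrain area, at 4.58, 4.66, 3.31 and 8.95 CPM, and white matter, at 1.71, 5.59, 4.20 and 12.8 CPM, were among the low areas. These levels rest on few reads, with as few as 5 counts of Fosb in an area of a set, and most neighbours in its order had overlapping intervals.

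Fosl2 was highest in layer 2/3 in sets 1, 2 and 4, at 63.3, 89.4, 20.7 and 80.0 CPM in sets 1 to 4. In set 3 it was highest in the meningeal area, at 46.6, 62.7, 35.4 and 52.7 CPM in sets 1 to 4. The striatal area had 23.3, 72.5, 15.2 and 57.6 CPM. White matter had 9.40, 16.5, 8.41 and 36.3 CPM and was lowest of the 9 areas in sets 1, 2 and 3. The sets differed least in the meningeal area, with a ratio of 1.77 between the highest and the lowest set.

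Jun ranked the areas differently from the Fos genes. White matter was highest of the 9 areas in sets 1, 2 and 3 and second in set 4, at 141.7, 125.8, 121.7 and 135.6 CPM. The ventricle lining followed or led, at 137.1, 120.0, 109.5 and 155.1 CPM, with intervals that overlapped those of white matter in each set. The striatal area was lowest of the 9 areas in every set, at 41.4, 64.1, 38.8 and 51.7 CPM, and its intervals lay below those of each of the other 8 areas. Cortical layers 2/3, 4 and 6 fell between. In set 2 Jun was higher still in layer 6b, an area not found in every set, at 132.9 CPM with an interval that overlapped that of white matter. In the thalamic area Jun was at 107.0 CPM in set 1 and 164.0 CPM in set 4.

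Junb was highest of the 9 areas in layer 2/3 in every set, at 68.9, 210.4, 49.4 and 277.0 CPM. In the striatal area it was at 51.6, 127.9, 41.4 and 122.1 CPM, in the middle of the order. The thalamic area, where Fos was high, had 13.9 CPM of Junb in set 1 and 41.2 CPM in set 4, the lowest value of all areas in each of those sets, with an interval that overlapped those of white matter and the ventricle lining in set 1 and of the basal forebrain area in set 4. The ventricle lining separated the sets most, with 14.4, 191.5, 15.4 and 126.5 CPM in sets 1 to 4. It was low among the areas in sets 1 and 3 and second in set 2. The make-up of that area also differed, since 14 striatal markers summed to 4776 CPM there in set 2 against 481 to 538 CPM in the other sets, and 11 white matter markers to 42478 CPM in set 1 against 3498 to 4665 CPM. Their part in the result was not tested.

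Jund varied least over the brain. Its highest areas among the 9 were the ventricle lining, at 673.5, 661.5, 661.3 and 786.8 CPM, the hypothalamic and preoptic area, at 551.0, 720.9, 547.0 and 625.7 CPM, and white matter, at 562.7, 707.8, 537.7 and 695.4 CPM. These 3 areas were the top 3 in each set. The striatal area had 408.1, 580.5, 382.1 and 467.3 CPM, and its intervals overlapped those of at least 1 cortical layer in every set.

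The differences between sets recurred within areas. Across the 9 areas the highest set was at least 2-fold above the lowest in 9 areas for Fos, 9 for Fosb, 9 for Junb and 8 for Fosl2, and in 0 areas for Jun and for Jund. This was 35 of 54 pairs of a member and an area, where 19.2% of all gene and area pairs that averaged 10 CPM or more passed the same fold. Of the 54 pairs 3 averaged less than that, which were Fosb in layer 4, in the basal forebrain area and in white matter. For Fos the ratio ran from 4.46 in the meningeal area to 12.8 in the hypothalamic and preoptic area, and for Junb from 2.96 in layer 4 to 13.3 in the ventricle lining. For Fosb it ran from 2.47 to 12.98, for Fosl2 from 1.77 to 4.78, for Jun from 1.15 to 1.95 and for Jund from 1.19 to 1.57.

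The background was not even between areas. In the striatal area 11.7% of genes passed the fold, and Fos, Fosb, Fosl2 and Junb did so with ratios of 11.5, 2.91, 4.78 and 3.09. In the ventricle lining 40.3% of genes passed it, in the meningeal area 24.7% and in white matter 24.2%. In layers 2/3, 4 and 6 it was 14.2%, 13.5% and 14.1%, in the basal forebrain area 14.3% and in the hypothalamic and preoptic area 13%. The make-up of white matter also differed, as 3 neuronal markers summed to 716, 1994, 1500 and 1620 CPM there in sets 1 to 4. The 14 striatal markers summed to 447, 1142, 1076 and 2612 CPM there. Their part in the white matter spread was not tested. Without the ventricle lining, the meningeal area and white matter 24 of 36 pairs passed. Set 3 was lowest in 8 of the 9 areas for Fos, 7 for Fosb, 9 for Fosl2 and 6 for Junb, and set 1 in the others. Set 4 was highest in 8 areas for Fos, 6 for Fosb, 5 for Fosl2 and 7 for Junb, and set 2 in the others. With 1 barcode set left out at a time, between 31 and 35 of the 54 pairs passed.

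A comparison that stays within a set sets cortex against striatum. The layers pooled as cortex were not the same in each set, with no layer 5 area in set 2 and no layer 6b area in set 4. All spots of the cortical layer areas had 3.40 (interval 2.90 to 4.01), 2.38 (2.19 to 2.60), 4.48 (3.63 to 5.57) and 4.13 (3.65 to 4.68) times the striatal level of Fos in sets 1 to 4. Fos was thus at least 2-fold higher in cortical areas in every set, where 7.03%, 8.31%, 7.24% and 7.05% of genes were. Jun was also higher in cortical areas, at 1.99 (1.87 to 2.12), 1.51 (1.42 to 1.61), 2.19 (2.06 to 2.33) and 1.72 (1.57 to 1.89) times, and passed 2-fold in set 3. Its set 1 value lay at that threshold, and passed it when the areas were drawn in other ways.

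**Figure D3:**
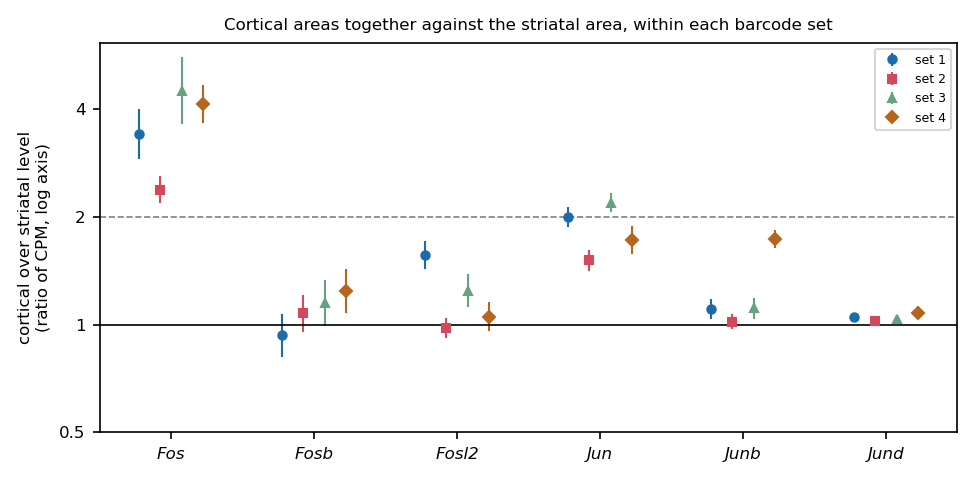
Ratio of the level in cortical areas together to the level in the striatal area, on a log axis, for each gene within barcode sets 1 to 4, with 95% counting intervals, a solid line at 1 and a dashed line at 2. Fos lies above 2 in each set, from 2.38 to 4.48, whereas Jund lies between 1.02 and 1.08.

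The other members were closer to even. For Fosb the ratio was 0.934, 1.08, 1.15 and 1.24 in sets 1 to 4, and the interval left out 1 in set 4 (1.08 to 1.43) and included it in the other sets. Fosl2 gave 1.56, 0.979, 1.24 and 1.05, with intervals that left out 1 in sets 1 and 3. Junb gave 1.11, 1.02, 1.11 and 1.73, so that set 4 (1.63 to 1.84) stood above the other sets. In set 1 the direction of Junb turned with the way areas were drawn, to a log2 ratio of -0.09 at a finer clustering and -0.07 with areas drawn by marker score. Jund gave 1.05, 1.02, 1.038 and 1.08. In set 4, striatal Fosb at 23.9 CPM compared with 29.6 CPM in the cortical areas, while striatal Fos at 24.5 CPM compared with 101.2 CPM there.

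Of the layers found in every set, 2/3 and 4 were set against each other. In set 2, 108 of the 222 layer 4 spots came from a cluster whose next-ranked marker list was that of layer 5. The layer 4 areas may therefore not match between sets. Fosb was 3.28, 2.57, 2.08 and 3.11 times as high in layer 2/3 as in layer 4 in sets 1 to 4, with lower limits of 2.24, 2.10, 1.57 and 2.32. In the 4 sets 1.67%, 1.83%, 1.72% and 2.3% of genes were at least 2-fold higher in layer 2/3 than in layer 4, and Fosb was in each. Junb was 1.68, 3.51, 1.15 and 2.29 times as high there. Fos was 1.78, 1.43, 0.772 and 1.502 times as high, so that its direction in set 3 was opposite to that in the other sets, with an interval of 0.600 to 0.987. Fosl2 was 1.91, 1.24, 1.21 and 1.65 times as high, and in set 3 its interval (0.987 to 1.49) included 1.

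The share of spots with at least 1 count was read after thinning each spot to 10000 counts, which left out 1, 26, 4 and 168 spots in sets 1 to 4. Fos was found in 12.6% (interval 11.4 to 13.8), 38.3% (36.5 to 40.2), 7.41% (6.56 to 8.34) and 43.4% (41.7 to 45.2) of spots. Before thinning the shares were 44.0%, 70.7%, 29.8% and 64.9%, so that in the deepest set many more spots counted as positive and the order of sets 2 and 4 was turned. Junb was found in 29.99%, 58.3%, 27.3% and 56.8% of thinned spots, and Fosl2 in 19.5%, 38.6%, 13.98% and 34.4%. Fosb was the sparsest, at 7.60%, 17.0%, 6.42% and 19.0%. For Fos and Fosl2 the shares ordered the sets as CPM did, with no overlap of intervals. With this many spots the intervals are narrow, and the share of all genes without such overlap is not given here. For Fosb and Junb the intervals of sets 1 and 3 overlapped, as did those of sets 2 and 4.

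**Figure D4:**
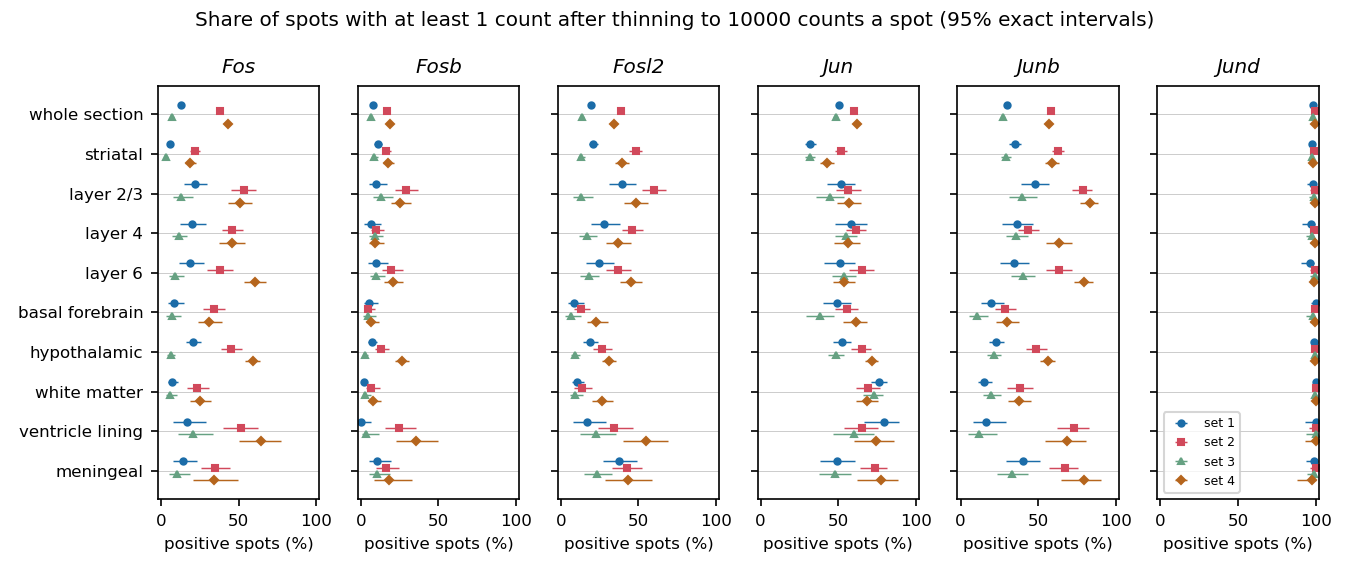
Share of spots in percent with at least 1 count after thinning to 10000 counts a spot, for each gene over the whole section and the 9 areas found in every set, with exact 95% intervals. Jund lies near 100% in all areas, and striatal Fos lies between 3.09% and 22.0%.

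Jun was found in 50.3%, 59.9%, 48.3% and 61.7% of thinned spots and Jund in 98.4%, 99.5%, 98.1% and 99.4%. In the striatal area Fos was found in 5.52%, 22.0%, 3.09% and 18.9% of spots, and in layer 2/3 in 21.7%, 53.4%, 13.2% and 50.8%. Junb in the striatal area was found in 34.9%, 62.9%, 29.2% and 58.9%, and in layer 2/3 in 48.1%, 78.9%, 39.7% and 83.1%. In the ventricle lining of set 1 Fosb was found in 0 of 54 thinned spots, which allows a share of up to 6.603% by the exact interval, against 24.4% in set 2, 3.45% in set 3 and 35.3% in set 4.

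The scatter of the counts over spots, taken relative to their mean, differed between sets. The variance of the thinned count over its mean, which is 1 where counts fall on spots by sampling alone, was 1.10, 1.61, 1.01 and 1.94 for Fos in sets 1 to 4. For Junb it was 1.16, 1.79, 1.15 and 2.08, and for Jun 1.21, 1.17, 1.18 and 1.27. At the same relative unevenness this index rises with the mean, which also differed between sets for Fos and Junb. Evenness apart from level was not tested. The spot with most Fos held 29, 36, 6 and 38 counts before thinning.

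Fos and Junb occurred together at the level of spots in some sets. Pearson's r between their thinned counts was 0.03, 0.32, 0.02 and 0.31 over the spots of sets 1 to 4. Within the striatal area it was 0.08, 0.43, 0.03 and 0.36 over 670, 628, 906 and 477 spots, and within layer 2/3 0.14, 0.48, 0.07 and 0.40. Between Fos and Jun it was 0.01, 0.05, 0.02 and 0.11 over whole sections. Spots share a library and the counts are sparse, above all in sets 1 and 3, so these values describe the spots and carry no test.

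Over the 51 pairs of an area and a set with at least 30 spots, the members fell into like patterns. Fosb and Junb had a Pearson r of 0.92 between their log2(CPM + 1) levels, Fosb and Fosl2 0.86, and Fosl2 and Junb 0.83. Fos was less like them, with 0.77 to Fosb, 0.75 to Fosl2 and 0.71 to Junb. Jun had 0.66 with Jund and 0.57 with Fos but 0.12 with Junb. The pairs share 4 libraries, so that a difference between sets enters every such r.

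The 10342 genes averaging 10 CPM or more over these pairs were then compared, and members were left out of the ranking. Those most like Fos were Ahsa1, an activator of the chaperone Hsp90, with 0.91, and Cox19, a copper chaperone for cytochrome oxidase, with 0.89. Gga1, a sorting adaptor of the Golgi, followed with 0.89. For Junb they included the immediate-early nuclear receptor Nr4a1, with 0.90, and the activity-regulated factor Mef2d, with 0.88. For Fosb they were the synaptic adhesion gene Lrfn4 (0.89), Gpr25 (0.87) and Mef2d (0.86), and for Fosl2 Lrrc73 (0.87), the mitochondrial transport adaptor Trak1 (0.87) and Lrfn4 (0.87). For Jund they were Pea15a (0.88), Ring1 (0.87) and Tssc4 (0.86). Jun had the least close neighbours, which were Bcl7c (0.78), the tubulin gene Tuba1a (0.72) and the deacetylase gene Hdac10 (0.71).

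The members act with other genes, listed here in 6 arms: the partners with which they pair, the JNK, ERK, SRF and CREB arms that act on them, and feedback genes induced beside them. Of the 52 listed genes reported here 48 were in the table, and 40 averaged 10 CPM or more. Between the highest and the lowest set 8 of these 40 were at least 2-fold apart, where 12.1% of all genes were. They were 7 of 8 feedback genes and 1 of 9 genes of the CREB arm, with 0 of 7 partners, 0 of 7 genes of the JNK arm, 0 of the 3 reported of the ERK arm and 0 of 6 of the SRF arm. The lists were drawn up with earlier results of these data known, so the counts are a description.

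**Figure D5:**
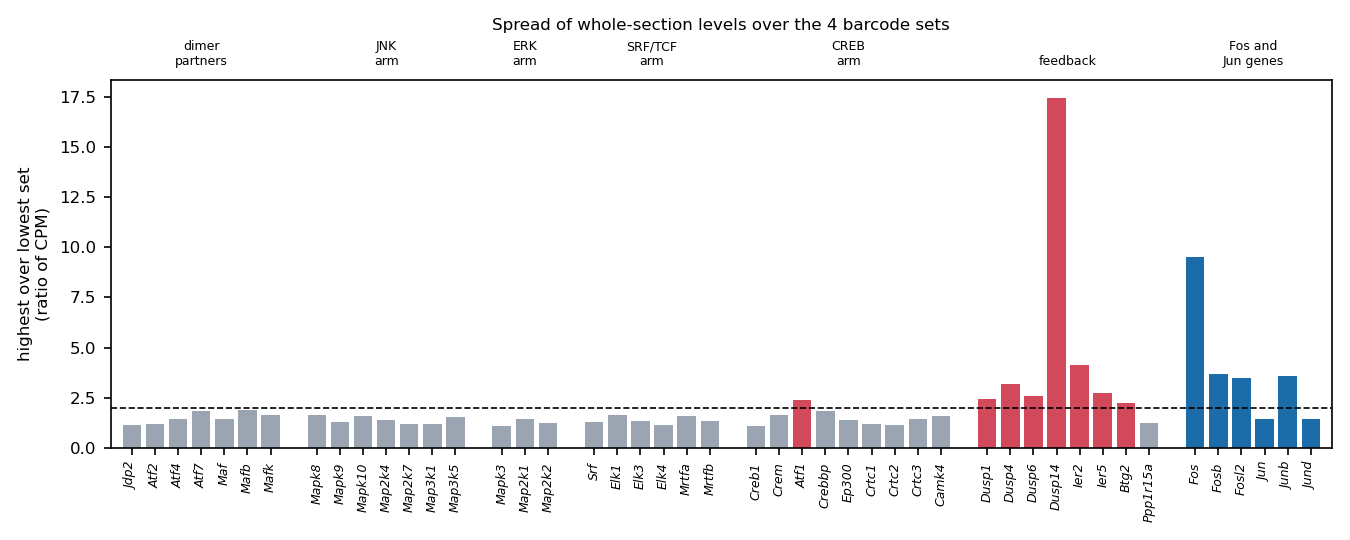
Ratio of the highest to the lowest barcode set in whole-section CPM for the 40 listed genes that averaged 10 CPM or more, by arm, and for the 6 members in blue. Red bars are at or above the dashed line at 2, and 7 of these 8 stand in the feedback group, with Dusp14 at 17.5.

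Dual-specificity phosphatases, which switch off MAP kinases, made up much of the feedback group. Dusp14 was at 1.505, 26.3, 1.82 and 22.3 CPM in sets 1 to 4, the widest spread of the list. Dusp4 was at 11.7, 35.6, 12.8 and 37.2 CPM and Dusp6 at 58.6, 151.5, 65.2 and 115.5 CPM. Like Fos, each was lower in sets 1 and 3 than in sets 2 and 4. Dusp1, at 32.4, 46.1, 26.7 and 64.5 CPM, differed less, with a ratio of 2.42 between the highest and the lowest set.

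The other feedback genes past 2-fold were Ier2, Ier5 and the antiproliferative gene Btg2. Ier2, an immediate-early gene, was at 8.26, 19.9, 6.40 and 26.4 CPM, Ier5 at 103.2, 282.3, 126.3 and 234.9 CPM, and Btg2 at 12.3, 23.8, 10.7 and 21.3 CPM. The remaining one with at least 10 CPM, Ppp1r15a, was at 17.6, 21.6, 18.9 and 19.9 CPM. Atf1, a relative of CREB, ran the other way, at 19.7, 9.19, 22.0 and 10.1 CPM. Below 10 CPM, the partner genes Fosl1, Batf, Batf2 and Maff were also past 2-fold. Maff was at 1.95, 4.00, 2.35 and 6.57 CPM, and the other 3 were at 1.02 CPM or less in every set, so their ratios rest on few counts.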

How the data were processed

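Spatial RNA was measured with Visium CytAssist for FFPE tissue, version 2, in 4 mouse brains. The authors deposited raw counts per gene and spot in 1 table; the submitters' processing notes name Space Ranger and Seurat, and the genome build is not given in the sources used here. The members and lists were chosen with earlier results of these data known.

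Spots under 500 counts were left out. Each barcode set was clustered alone with scanpy 1.11.5 (2000 variable genes without the members, 30 components, 15 neighbours, Leiden method of igraph 0.11.9 at resolution 1.5, seed 0). A cluster took the area with the largest share of its markers among the cluster's 100 leading genes, if these held at least 3, their mean log2 fold was at least 0.5, and the 10 leading genes held at least 1 and no more of another list. These limits were set after the clusters' marker genes, but not the members, were seen.

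Levels are CPM of summed counts, with exact Poisson intervals. Ratios have exact conditional binomial and shares exact Clopper-Pearson intervals (scipy 1.17.1), all at 95%. Named genes are the members, the 3 genes outside the members most like each, and the listed pathway genes 2-fold apart between any sets. Ppp1r15a was named after its values were seen. Library totals were 90752475 to 174761560 counts. The genotype test and its edgeR quasi-likelihood fit were not run; edgeR 4.0.16 gave TMM and RLE factors. The steps were tested on simulated data. Mafg, Rps6ka1, Rps6ka2 and Rps6ka3 were not analysed here. Of the pathway list, 1 gene is not reported here.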

Additional observations from a re-analysis of the deposited data

How the results depend on the processing

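No paired analysis was possible because no barcode set could be tied to an animal; for the same reason the genotype test and the alternatives that leave out an animal were not run. The number of members 2-fold apart between sets was the same for each pair of sets under both minimums of counts per spot. It was also the same with thinning of the summed counts, which leaves expected ratios unchanged, and with no filter on genes. With TMM and RLE scaling it fell from 4 to 3 between sets 1 and 4, as Fosl2 fell short of 2-fold, and was the same for the other pairs. With a 1.5-fold threshold it became 2 between sets 1 and 3 and was the same for the others. Between cortical and striatal areas it rose in set 1 from 1 to 2 with RLE scaling, clustering resolutions of 1 and 2, areas by marker score and layers 2/3, 4 and 6 alone (chosen after seeing the data), as Jun crossed the threshold, and in set 4 from 1 to 2 with areas by marker score. At 1.5-fold it became 3 in set 1, 2 in set 2 and 3 in set 4. The log2 ratio of Junb in set 1 turned to -0.0894 at resolution 2 and -0.0743 with marker scores. The share of member and area pairs past 2-fold over the sets stayed within 1.5 times its value of 64.8% under every alternative run, although areas with 30 spots in every set numbered 6 at resolution 1 and 12 by marker score. Of the single log2 ratios between sets, 59 of 180 moved beyond their counting intervals. These were 30 of 36 with TMM scaling and 29 of 36 with RLE scaling. With each minimum of counts per spot and with the thinning, all 36 stayed within them. Between areas 34 of 192 moved beyond their counting intervals, and 2 others, both of Junb in set 1, reversed direction. Shares moved in 71 of 72 cases, as thinning sets their level. Depth limits Fosb most, at 5 counts in its thinnest area.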

Other observations

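Spots of unnamed clusters were counted in none of the areas compared, although some carried markers of those areas. Fos was at 13.7, 70.7, 12.5 and 101.8 CPM there in sets 1 to 4, Junb at 37.2, 119.7, 37.8 and 130.0 CPM, and Jun at 89.0, 103.6, 95.4 and 132.2 CPM. Unlike in the whole sections, Jun was higher there in set 3 than in set 1. The choroid plexus area, present with at least 30 spots in sets 1 and 3, had 58.4 and 20.4 CPM of Junb, 11.2 and 1.94 CPM of Fosb, and 40.1 and 54.2 CPM of Jun. Its Junb and Fosb levels were thus lower in set 3 and its Jun level higher.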
